A study of Mus musculus with 29 samples.

Results

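Glucose uptake, glycolysis and lactate formation were followed through 10 genes, taken by symbol from the 24448 gene rows of the raw count table: Slc2a1, Hk1, Hk2, Pfkp, Aldoa, Gapdh, Pgk1, Pkm, Ldha and Ldhb. All 10 symbols had a row. The libraries were made with Smart-seq2, a full-length cDNA method for single cells, from mouse nuclear transfer embryos and from cumulus cells, the follicle cells that surround the egg and served as nuclear donors. Each embryo was an enucleated metaphase II egg injected with a cumulus nucleus, cultured in KSOM and activated for 6 h with 10 mM strontium in the presence of CB and EGTA, so every embryo of both groups carries egg cytoplasm, a somatic nucleus and the same activation. The 9 control embryos were cultured without hydroxyurea (HU), and the 8 HU embryos were cultured with 10 uM HU, which was exchanged for HU-free medium after 24 h. Embryos were assigned to either medium at random and were collected singly as 2-cell embryos, 28 h after activation. HU inhibits ribonucleotide reductase, the enzyme that makes deoxyribonucleotides. The third group is 12 single, manually picked cumulus cells. All libraries are labelled strain BDF1. No label gives an age, an animal or a culture for any library, so the p-values below measure the spread between these embryos, which may be partly technical, and the 12 cells are treated as 1 sample without a test.

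In glycolysis, glucose enters the cell through facilitative transporters such as Slc2a1, is phosphorylated by hexokinases, committed by phosphofructokinase, split by aldolase, oxidised by Gapdh, and carried through Pgk1 and pyruvate kinase to pyruvate. Lactate dehydrogenase is a tetramer that interconverts pyruvate and lactate. Its A subunit (Ldha) is typical of glycolytic tissue and its B subunit (Ldhb) of heart and of the mouse egg. The egg and the early cleavage embryo use pyruvate and lactate and little glucose, whereas cumulus cells break down glucose and pass pyruvate to the egg.

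The upstream sequences of the lactate dehydrogenase genes are shown first, with that of Pgk1 as a gene of the middle steps. Each run is the 250 bases before a RefSeq transcription start in GRCm38.p6, 5′ to 3′ on the gene's strand, and capitals mark ACGTG or GCGTG on either strand (CACGT or CACGC when read on the other strand), 2 forms of the core of the hypoxia response element, a motif known from glycolytic promoters.
Ldha, chr7:46845554-46845803, plus strand: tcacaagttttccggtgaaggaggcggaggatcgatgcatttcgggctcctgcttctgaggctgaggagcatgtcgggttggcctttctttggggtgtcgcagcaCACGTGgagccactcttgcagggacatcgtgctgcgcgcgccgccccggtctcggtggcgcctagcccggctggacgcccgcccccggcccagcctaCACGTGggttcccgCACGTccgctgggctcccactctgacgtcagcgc
Ldhb, chr6:142507958-142508207, minus strand: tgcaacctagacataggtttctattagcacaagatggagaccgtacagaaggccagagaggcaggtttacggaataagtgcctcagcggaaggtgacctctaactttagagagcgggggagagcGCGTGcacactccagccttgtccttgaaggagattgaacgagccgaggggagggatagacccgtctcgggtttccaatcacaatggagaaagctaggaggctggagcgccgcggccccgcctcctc
Pgk1, chrX:106186850-106187099, plus strand: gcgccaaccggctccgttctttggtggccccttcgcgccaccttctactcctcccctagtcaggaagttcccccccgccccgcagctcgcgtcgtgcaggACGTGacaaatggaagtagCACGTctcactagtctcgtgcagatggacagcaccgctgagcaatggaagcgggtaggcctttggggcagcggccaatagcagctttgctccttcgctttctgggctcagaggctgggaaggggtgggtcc
All 3 windows lie outside annotated exons. The printed Ldha window holds ACGTG at 3 places, of which both runs of 6 capitals are the palindrome CACGTG, the Pgk1 window holds ACGTG at 2 places, and the Ldhb window holds GCGTG once and no ACGTG. A second RefSeq start of Ldha (window chr7:46846832-46847081) has the motif content of the Ldhb window, GCGTG once and no ACGTG, and the counts below do not tell the starts apart. Across the 15 RefSeq windows of the 10 genes, ACGTG was present in windows of 6 genes (Slc2a1, Hk2, Aldoa, Pgk1, Pkm and Ldha), 7 of 15 windows in all, against 16.6% of all 32851 windows of this length. GCGTG was present in 6 of 15 windows, against 28.2% of all windows. CACGTG was present in 1 of 15 windows, that of Ldha, against 6.02%. GGGCGG, the GC box, was present in 8 of 15 windows, against 32.7%, and TATAAA in 0 of 15, against 12.4%. The CACGTG and ACGTG counts overlap, since each CACGTG contains an ACGTG. The windows are not all separate either: overlapping windows of Aldoa hold the same ACGTG site, which is counted in each. The median number of CG dinucleotides was 16 in the 15 windows and 6 in all windows. A match is a stretch of letters and does not show that a factor binds there. Gapdh, the gene with the largest cell to embryo ratio below, had GCGTG and no ACGTG in its window. ACGTG was present for Ldha, Aldoa and Pgk1, also at least 4-fold higher in cells below, and for Slc2a1, Hk2 and Pkm, which were not. A relation between these motifs and the levels below was not tested.

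Counts assigned to genes ranged from 1801261 to 3472116 in control embryos, from 2442541 to 3757492 in HU embryos and from 317195 to 4051494 in cumulus cells, with 13875 to 15132, 12887 to 15421 and 4054 to 8629 genes detected. The Rn45s row, the precursor of ribosomal RNA, took 15.2% to 32.5% of gene counts in the embryos and 49.3% to 86.6% in the cells. Of 21 cumulus and granulosa markers, 20 had a count among the cells (Cyp19a1 was at 0), and their summed level was 457 to 13732 CPM in cells and 49.8 to 241 CPM in control embryos, where CPM is a count scaled to the library's total of gene counts. All 15 egg markers were present in every embryo, and 9 of them, Zp1, Zp2, Zp3 and Gdf9 included, were at 0 in all 12 cells, with a summed level of 0 to 74.1 CPM. Cumulus cell 2 stands apart, with the highest Rn45s share, the lowest granulosa marker sum (the other 11 cells had 1876 to 13732 CPM) and 7 of 10 immune markers at 180.1 CPM summed. Cumulus cell 11 also stands apart, with 200.5 CPM of theca and stroma markers (3 of 10; the other cells had at most 51.9 CPM), 3 immune markers at 32.7 CPM and an Rn45s share of 71.2%. These 2 cells had the lowest shares of the 10 genes, 0.0376% and 0.0814% of gene counts. The part of the other cell types' markers in the results was not tested, and the main counts and ratios of the cells are also given without cell 2 and without both cells.

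Together the 10 genes took a median of 0.11% of gene counts in control embryos (0.0761% to 0.186%), 0.12% in HU embryos (0.079% to 0.147%) and 0.361% in cumulus cells (0.0376% to 0.67%). All 10 were detected in every embryo, and 7 to 10 of them in each cell. Levels are given below as the deposited FPKM, gene counts scaled to gene length and library total, so that genes of different length can be compared, as lowest, median and highest library.

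**Figure D1:**
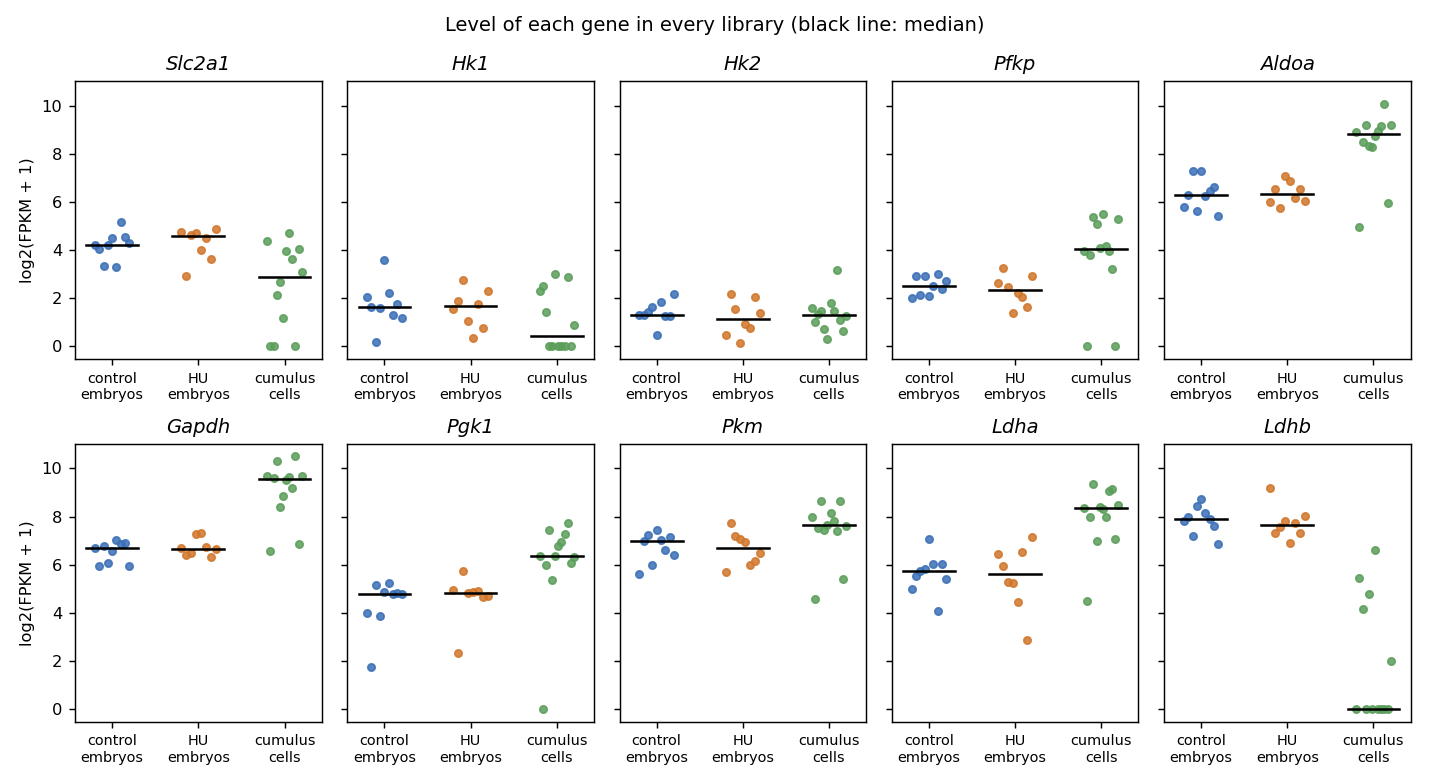
Level of the 10 genes in each of the 29 libraries as log2(FPKM + 1) of the deposited FPKM (vertical axis, 0 for no count), with 9 control embryos, 8 HU embryos and 12 cumulus cells as points and the median as a black line. Ldhb lies at 116 to 575 FPKM in the embryos and at 0 to 97.9 FPKM in the cells, and Gapdh, Aldoa and Ldha have higher medians in the cells.

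In the embryos, Ldhb was the most abundant of the 10 transcripts and the hexokinases were the least. By median FPKM the order in control embryos was Ldhb, Pkm, Gapdh, Aldoa, Ldha, Pgk1, Slc2a1, Pfkp, Hk1 and Hk2, and the HU embryos gave the same order. Only Slc2a1 and Pfkp, among neighbours in the control order, had ranges that did not overlap. Ldhb lay above Pkm in 8 of 9 control embryos, and Pkm above Gapdh in 5 of 9, so the order of Pkm and Gapdh is not separated from the spread between embryos. In the cumulus cells the order was Gapdh, Aldoa, Ldha, Pkm, Pgk1, Pfkp, Slc2a1, Hk2, Hk1 and Ldhb, with overlapping ranges between all neighbours. Gapdh exceeded Aldoa in all 12 cells.

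Slc2a1, the GLUT1 glucose transporter (chromosome 4, 119108711 to 119137983, plus strand, GRCm38), had 8.71, 17.6 and 34.5 FPKM in control embryos and 6.49, 22.8 and 28.5 FPKM in HU embryos. In cumulus cells it had 0, 6.44 and 25.2 FPKM and was detected in 9 of 12. The cells lie lower than most embryos, yet the ranges overlap. Hk1, the broadly expressed hexokinase (chromosome 10, 62268855 to 62379908, minus strand), had 0.123, 2.12 and 10.9 FPKM in control embryos, 0.271, 2.17 and 5.78 FPKM in HU embryos and 0, 0.425 and 7.06 FPKM in cells, where 6 of 12 had a count. Hk2, the hexokinase that is inducible in muscle and tumours (chromosome 6, 82725025 to 82774454, minus strand), had 0.371, 1.5 and 3.5 FPKM, 0.117, 1.26 and 3.48 FPKM, and 0.224, 1.45 and 7.98 FPKM in the same groups, and was detected in all 12 cells. Hexokinase counts were small: Hk1 had 1 count in control 3 and 120 in control 5, and Hk2 had 2 counts in HU 4.

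Pfkp, the platelet-type phosphofructokinase (chromosome 13, 6579768 to 6648777, minus strand), had 2.99, 4.63 and 7.06 FPKM in control embryos, 1.62, 4.1 and 8.57 FPKM in HU embryos and 0, 15.4 and 43.7 FPKM in cells. It had no count in cumulus cells 2 and 11, and 10 cells exceeded every control embryo in CPM. The gene overlaps Pitrm1 on the opposite strand. These libraries do not mark strand, so reads in the overlap cannot be told apart (Pitrm1 averaged 44.3 CPM in control embryos and 100.1 CPM in cells). Aldoa, the muscle-type aldolase that is also widespread (chromosome 7, 126795234 to 126800751, minus strand, 2 gene models), had 41.7, 77.6 and 156 FPKM in control embryos, 53.4, 80.7 and 133 FPKM in HU embryos and 30.1, 455 and 1065 FPKM in cells. Both embryo groups fill nearly the same range, and 10 cells lie above it.

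Gapdh, which oxidises glyceraldehyde 3-phosphate (chromosome 6, 125161715 to 125166467, minus strand), had 60.7, 102 and 130.4 FPKM in control embryos, 78.3, 101 and 158 FPKM in HU embryos and 92.8, 758 and 1450 FPKM in cells. The genome holds 77 near-identical copies of Gapdh (at least 95% identity over 300 bases), 73 of them pseudogenes. Only 3 copies have a row, with 46 counts in all against 30421 for Gapdh, and reads that the authors' counting left unassigned for this reason are not seen here. Pgk1, an X-linked gene for the first ATP-forming step (chromosome X, 106187100 to 106203699, plus strand), had 2.38, 26.8 and 36.8 FPKM in control embryos, 4.07, 27.8 and 51.9 FPKM in HU embryos and 0, 81.3 and 214 FPKM in cells. The lowest embryo of each group, control 2 with 10 counts and HU 2 with 24, had less than any other embryo of its group since the next values were 13.8 and 24.3 FPKM. Pkm, pyruvate kinase (chromosome 9, 59656368 to 59679375, plus strand), had 47.6, 126 and 174 FPKM, 51.6, 105 and 212 FPKM, and 22.5, 198 and 401 FPKM in control embryos, HU embryos and cells. Gene rows sum its M1 and M2 isoforms, which were not separated.

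Ldhb (chromosome 6, 142490249 to 142507957, minus strand) was high in every embryo and rare in the cells. The control embryos 1 to 9 had 222, 252, 146, 351, 425, 285, 238, 196 and 116 FPKM, and the HU embryos 1 to 8 had 575, 159.5, 190.0, 226, 120.1, 211, 160.3 and 263 FPKM. In 7 of 12 cells no count fell on Ldhb, where a limit of 3 counts allows 0.568 to 7.25 FPKM. This limit covers counting error of reads only and not transcripts missed before sequencing, so the level in these cells may be higher. The other 5 cells were cell 7 with 97.9 FPKM from 266 counts, cell 2 with 42.6 from 78, cell 5 with 26.2 from 49, cell 3 with 17.1 from 59 and cell 12 with 2.94 from 3. Embryos and cells do not overlap, because the lowest embryo (116 FPKM) lies above the highest cell (97.9 FPKM). This is not particular to Ldhb. All 12 cells also lay below the lowest control embryo for other pathway genes described below, among them Bpgm, Galm, Tigar, Pdhx and G6pdx. The share of all genes separated in this way was not computed.

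Ldha (chromosome 7, 46841475 to 46855627, plus strand) showed the opposite placement with a wide spread between embryos. Control embryos 1 to 9 had 31.1, 45.2, 51.8, 55, 134, 64.3, 15.8, 64.5 and 41.2 FPKM, and HU embryos 1 to 8 had 86.1, 60.9, 38.1, 36.8, 21.1, 92.1, 6.41 and 143 FPKM. The cells had 21.4, 322 and 646 FPKM, with the lowest value in cell 2, and 10 cells exceeded the highest control embryo in CPM. Ldhb exceeded Ldha in 9 of 9 control embryos and 8 of 8 HU embryos, and in 1 of 12 cells, cell 2.

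As a share of the summed FPKM of both genes, which does not depend on how libraries are scaled to each other, Ldha made up 6.23%, 18.4% and 26.2% (lowest, median, highest) in control embryos, 3.85%, 15.8% and 35.1% in HU embryos and 33.4%, 100% and 100% in cells. Cell 2, at 33.4%, lies inside the embryo range, under HU 8 at 35.1%, and the other 11 cells lie above every embryo. Among the cells with an Ldhb count, the share was 99.2% in cell 12, 93.7% in cell 3, 82.6% in cell 5, 76.4% in cell 7 (95% Wilson interval of the counts, 74% to 78.7%) and 33.4% in cell 2 (26.4% to 41.3%). The hexokinase balance did not separate the groups in this way: Hk1 made up 6.71%, 58.5% and 96.7% of Hk1 plus Hk2 FPKM in control embryos, 18.3%, 73.1% and 90.2% in HU embryos and 0%, 19% and 96.9% in cells. Without cell 2 the median Hk1 share of the cells was 0%, and without cells 2 and 11 it was 19%.

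**Figure D2:**
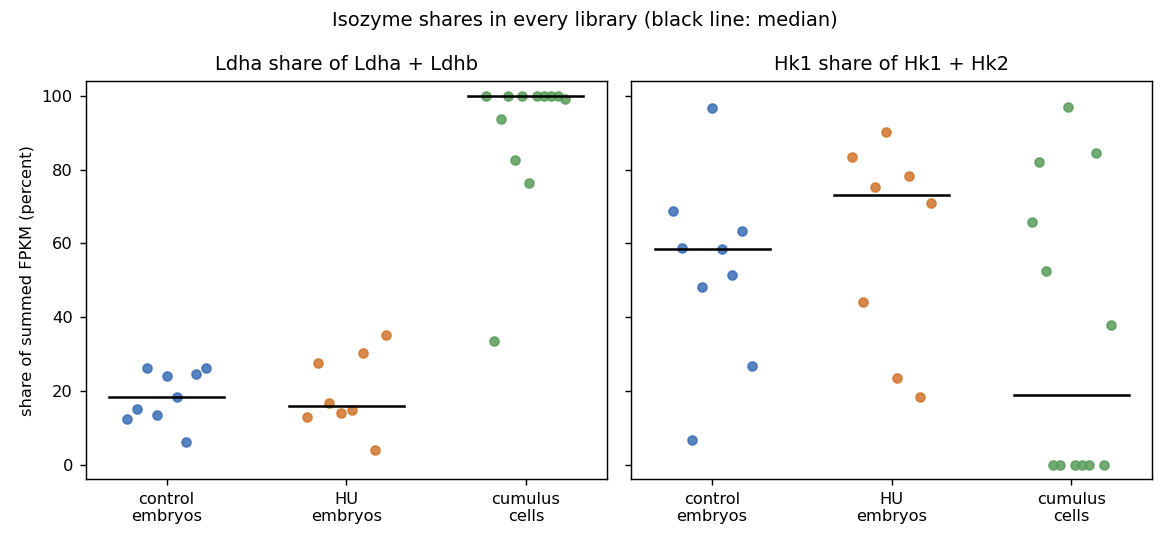
Share of Ldha in the summed FPKM of Ldha and Ldhb (left) and of Hk1 in that of Hk1 and Hk2 (right), in percent, 1 point a library, black line the median of 9 control embryos, 8 HU embryos or 12 cumulus cells. Embryos lie at 3.85% to 35.1% Ldha and 11 cells at 76.4% or above, while the Hk1 shares of the 3 groups overlap.

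The series holds the donor cell type beside the reconstructed embryos, which asks how far the embryo's transcripts differ from those of the donor cell. Counts were summed over the 12 cells and set, in CPM, beside the mean of the 9 control embryos. A ratio of 4-fold or more on genes with 10 CPM on the higher side was counted, with no test. CPM is a share of each library, and an embryo library sums both of its cells. The middle steps of glycolysis and Ldha were higher in cells and Ldhb was lower. Of the 10 genes, 4 were at least 4-fold higher in cells, against 10.2% of the 10051 genes compared, and 1 was at least 4-fold lower, against 39.2%. The median log2 ratio of the 10 genes, chosen with earlier results of these data known, was 1.41 and that of all genes compared was -1.31. The 10 genes do not stand for the whole pathway. Among genes at 10 CPM, the median was -0.05 for other glycolysis enzymes and -3.78 for regulators. It was -2.02 for transporters, -0.80 for pyruvate dehydrogenase genes and 1.18 for the pentose phosphate pathway.

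Gapdh had 959 CPM in the summed cells (exact Poisson 95% interval 947 to 971, counting error only) against 142 ± 39.8 CPM (SD, n = 9) in control embryos, 6.74-fold higher. Ldha had 615 CPM (605 to 625) against 108 ± 64.1 CPM (SD, n = 9), 5.7-fold higher. Aldoa had 732 CPM (721 to 743) against 161 ± 77.5 CPM (SD, n = 9), 4.56-fold higher. For these 3 genes 10 of 12 cells lay above the highest control embryo. This is not particular to them, as Pgm2 and Hif1a also had 10 such cells and Pgls 11. The share of all genes with so many cells above the controls was not computed, for these or any other gene named here. Pgk1 had 173 CPM (167 to 178) against 43 ± 20.2 CPM (SD, n = 9), 4.02-fold higher, with 11 cells above the highest control embryo, and Pfkp had 80.7 CPM (77.2 to 84.4) against 20.7 ± 6.57 CPM (SD, n = 9), 3.9-fold higher. Pgk1 and Pfkp sit on the 4-fold line, and which side they take changed with single libraries. Pfkp passed 4-fold without any of cells 1, 2, 3, 6, 9 or 11 or controls 2, 4 or 7 (up to 4.19-fold), and Pgk1 fell under it without any of cells 4, 7, 8, 9 or 10 or controls 1, 2 or 4 (down to 3.61-fold).

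Pkm was 1.81-fold higher in the cells, and Hk2 1.15-fold. Slc2a1 had 24.5 CPM in the cells and 47.5 ± 19.8 CPM (SD, n = 9) in control embryos, 1.94-fold lower. Hk1 had 9.77 CPM against 13.5 ± 14.1 CPM (SD, n = 9), a log2 ratio of -0.47 that moved to -1.35 without cell 6 and to 0.10 without control 5. The Hk2 log2 ratio of 0.20 moved to -0.45 without cell 9. Neither hexokinase ratio has a stable sign. Ldhb had 18.9 CPM (17.2 to 20.7) against 324 ± 126 CPM (SD, n = 9), 17.1-fold lower. All 12 cells lay below the lowest control embryo, as they did for other pathway genes. Cell 7 gave most of the Ldhb counts, and without it the difference was 37.6-fold.

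Without cell 2, 5 of the 10 genes were at least 4-fold higher (10.7% of all genes) and 1 lower (38.7%), with log2 ratios of -0.87 for Slc2a1, -0.58 for Hk1, 0.24 for Hk2, 2.05 for Pfkp, 2.27 for Aldoa, 2.83 for Gapdh, 2.09 for Pgk1, 0.94 for Pkm, 2.59 for Ldha and -4.28 for Ldhb. Without cells 2 and 11, a choice made after seeing the data, 5 were higher (10.7%) and 1 lower (38.9%), with 2.92 for Gapdh, 2.66 for Ldha and -4.17 for Ldhb. The larger Rn45s share of the cells lowers every other gene's CPM there. With Rn45s left out of the totals, the log2 ratios of the 10 genes were 0.88 to 0.95 larger: Gapdh 3.68, Ldha 3.45, Aldoa 3.13, Pgk1 2.91, Pfkp 2.88, Pkm 1.79 and Hk2 1.08, with Hk1 at 0.48, Slc2a1 at -0.02 and Ldhb at -3.15. On that scale 5 of 10 were at least 4-fold higher, against 19.4% of 11284 genes, and 1 lower, against 27%, and the medians were 2.34 for the 10 genes and -0.21 for all genes. Per ERCC spike-in count all 10 genes were lower in cells than in control embryos, from -0.81 for Gapdh to -7.67 for Ldhb on the log2 scale, as a cell gave 0.36 to 3.04 gene counts per ERCC count and a control embryo 10.8 to 19.2; this scale compares amounts only if each library received the same amount of spike-in, which the labels do not state. The directions above are thus those of shares of a library and not of amounts per library. A change of scale moves the log2 ratios of all 10 genes by nearly the same step. Gapdh and Ldhb therefore stay the extremes on all 3 scales, which adds no further evidence.

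**Figure D3:**
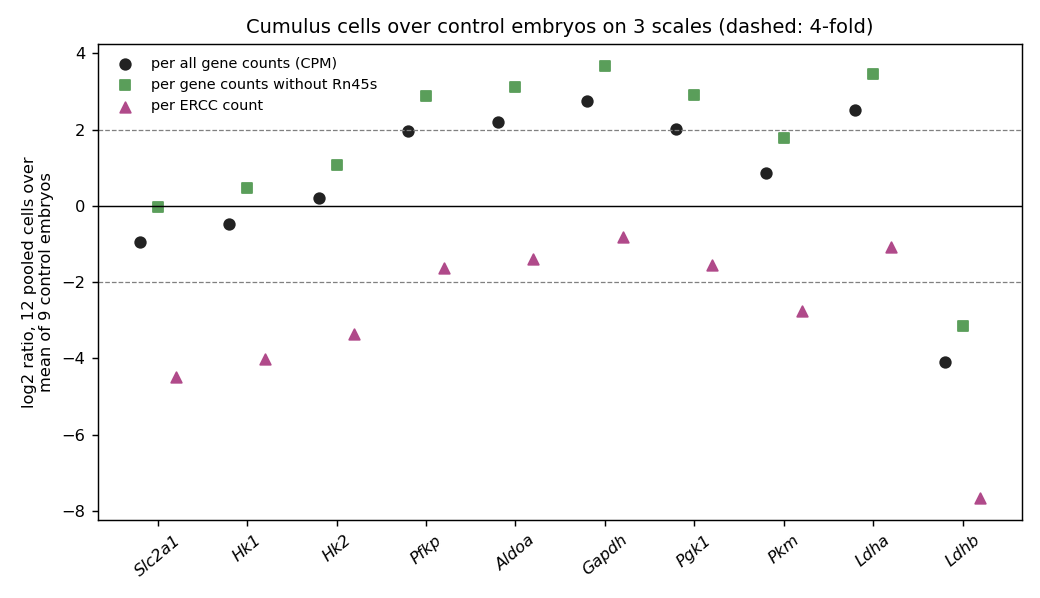
Log2 ratio of CPM, 12 summed cumulus cells over the mean of 9 control embryos, for the 10 genes, as set out in the legend for gene totals with and without Rn45s and for counts per ERCC count. A change of scale shifts all 10 points nearly alike, so Ldhb stays lowest and Gapdh highest, and per ERCC count all 10 points lie below 0.

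Across the 12 cells, the levels of 7 genes, those with a count in at least 10 cells, were positively correlated. Their 21 pairs had Spearman rho of 0.28 to 0.91 with a median of 0.56, highest for Aldoa and Gapdh (0.91). The median was 0.46 without cell 2 and 0.39 without cells 2 and 11 (-0.13 to 0.84). The 24 pairs that involve Slc2a1, Hk1 or Ldhb had rho of -0.60 (Pgk1 and Ldhb) to 0.44 and a median of -0.09. Of these 24 pairs 14 were below 0, among them Slc2a1 with Hk1 (-0.59) and Ldha with Ldhb (-0.52). Slc2a1, Hk1 and Ldhb had a count in 9, 6 and 5 cells, so cells tied at 0 enter these pairs. These values describe 12 cells whose genes share a library total and its Rn45s share. Pairs of genes outside the 10 were not compared, so the correlations are not shown to be particular to these genes.

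Another 73 genes of the pathway were grouped as other glycolysis enzymes, regulators, transporters, pyruvate dehydrogenase with its kinases, and the pentose phosphate pathway. In cells against control embryos 46 of them reached 10 CPM on the higher side, of which 7 were at least 4-fold higher in cells and 18 at least 4-fold lower, against 10.2% and 39.2% of all genes compared. Without cell 2 these were 7 and 16, and without cells 2 and 11 they were 7 and 15. Of the 24 other glycolysis enzymes 12 reached 10 CPM, 1 was higher and 4 lower. Pgm2, a phosphoglucomutase, was 11.3-fold higher (79.2 against 7.01 ± 5.46 CPM, SD, n = 9), and Gpi1, the isomerase after hexokinase, had a log2 ratio of 1.42. Bpgm, which makes 2,3-bisphosphoglycerate from a glycolytic intermediate, was 147-fold lower, with 3.95 CPM in the cells and 581 ± 81.7 CPM (SD, n = 9) in control embryos. Bpgm had a count in 3 cells, and without cell 5 the difference was 299-fold. Galm, the aldose mutarotase, was 139-fold lower, with its 10 counts all in cell 4, and at least 429-fold lower without that cell. The Eno1 row held 4 counts over the 29 libraries and its near-identical copy Eno1b 1311, so enolase 1 is uncertain here.

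Among the 10 regulators 6 reached 10 CPM, 2 higher and 4 lower. Myc, a transcription factor that drives glycolytic genes in many cells, had 299 CPM in cells and 8.11 ± 6.46 CPM (SD, n = 9) in control embryos, 36.9-fold higher, and all 12 cells lay above the highest control embryo. Hif1a, an oxygen-regulated factor, was 5.01-fold higher (327 against 65.3 ± 18 CPM, SD, n = 9). A link to the motifs marked above was not tested. Tigar, a fructose bisphosphatase, was 46.7-fold lower, with its 32 counts all in cell 3 (at least 443-fold lower without it), and Gckr, the glucokinase regulatory protein, had no count in the cells and was at least 138-fold lower, taking 3 counts over the 12 cells as the floor.

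Among the 17 transporters 9 reached 10 CPM, 1 higher and 5 lower. Slc2a3, the GLUT3 glucose transporter, had no count in any cell against 18.9 ± 14.6 CPM (SD, n = 9) in control embryos, at least 151-fold lower, and Slc2a12 was at least 107-fold lower. Emb and Bsg, which escort lactate and pyruvate carriers to the membrane, had log2 ratios of 2.71 and 1.78. Emb fell to 3.72-fold without cell 6, which held 1406 of its 2674 counts. Of 13 pyruvate dehydrogenase genes 12 reached 10 CPM, 1 higher and 3 lower. Pdk4, a kinase that switches pyruvate dehydrogenase off, had 503 counts in 4 cells, of which 442 lay in cell 8, so its 65.2-fold ratio was 8.92-fold without that cell and at least 148-fold without control 5. Dld had a log2 ratio of 1.11, Pdhx of -2.97 and Pdp2 of -2.75. In the pentose phosphate pathway 7 of 9 reached 10 CPM, 2 higher and 2 lower. Pgls was 24-fold and H6pd 21.1-fold higher (35.8-fold for H6pd without control 6), while G6pdx, the first enzyme of the pathway, was 9.57-fold lower (33.1 against 317 ± 141 CPM, SD, n = 9) and Rpe 4.31-fold lower.

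**Figure D4:**
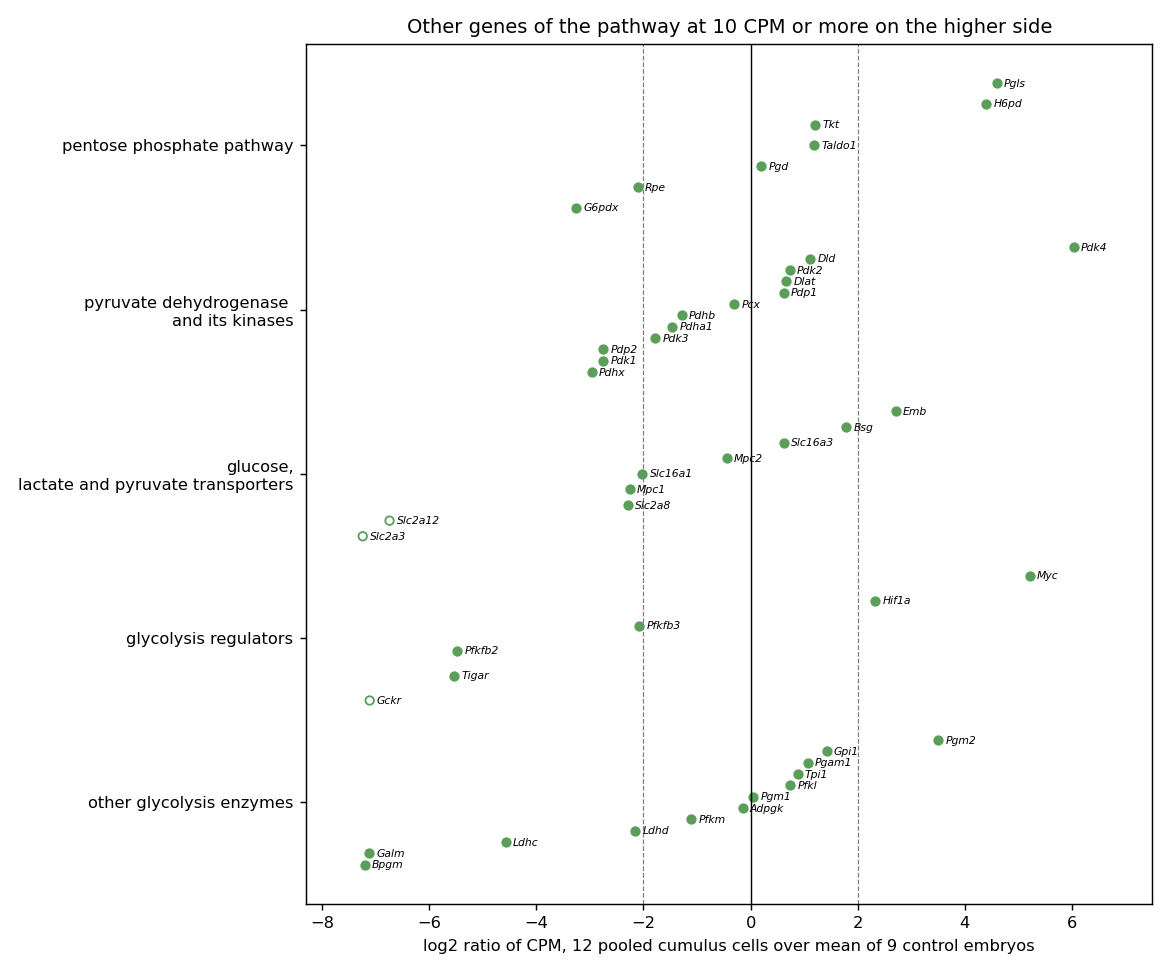
Log2 ratio of CPM (horizontal axis), 12 summed cumulus cells over the mean of 9 control embryos, for the 46 other pathway genes with 10 CPM or more on the higher side, by group. Dashed lines mark 4-fold and open circles are genes with no count in the cells, drawn at their lower bound. Myc, Pdk4 and Pgls lie far to the right, and Bpgm, Galm, Slc2a3 and Gckr far to the left.

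What culture with HU changes in the 2-cell transcriptome was asked by setting the 8 HU embryos against the 9 controls. No change was called in any of the 10 genes. All 10 passed the filter on low counts, their log2 fold changes (edgeR, HU over control) lay between -0.32 and 0.24 with a median of 0.01, 6 above 0 and 4 below, and the smallest adjusted p was 0.883 (edgeR's quasi-likelihood test, Benjamini-Hochberg). Over all 11476 genes tested edgeR called 0% (0 genes) at an adjusted p under 0.05, with a median log2 fold change of 0.04. At an unadjusted p under 0.05 it found 671 genes (5.85%), 437 higher and 234 lower, and none of the 10 genes. DESeq2 called 2 genes higher and 1 lower, none of them among the 10, and limma-voom called 0.

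The intervals show what size of change these embryos leave room for. Gapdh had 95.1 ± 26.6 FPKM (SD, n = 9) in control and 109 ± 30.9 FPKM (SD, n = 8) in HU embryos, a log2 fold change of 0.23 ± 0.20 (SE) with a 95% interval of -0.17 to 0.64. Aldoa gave 0.02 ± 0.26 (-0.51 to 0.55), Pkm 0.00 ± 0.26 (-0.54 to 0.55) and Ldhb -0.00 ± 0.27 (-0.57 to 0.56). For these 4 genes a change beyond 0.64 on the log2 scale lies outside the interval in either direction, in this fit only. With ERCC scaling the estimates were larger and less precise: Gapdh 0.38 ± 0.24 (SE), Aldoa 0.09 ± 0.29, Pkm 0.13 ± 0.32 and Ldhb 0.18 ± 0.33. The bound of 0.64 does not carry over to that scaling. Slc2a1 gave 0.13 ± 0.29 (-0.47 to 0.73) and Pfkp -0.16 ± 0.32 (-0.83 to 0.51). Pgk1 gave 0.24 ± 0.40 (-0.59 to 1.07) and Ldha 0.13 ± 0.42 (-0.73 to 1.00), and the hexokinases were the least precise, Hk1 with -0.32 ± 0.58 (-1.52 to 0.88) and Hk2 with -0.24 ± 0.55 (-1.38 to 0.90). The sign of several changed when 1 embryo was left out: Hk1 was 0.20 without control 5, Ldhb 0.10 without control 5 and Ldha -0.14 without HU 8. Ldhb was -0.35 without HU 1.

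**Figure D5:**
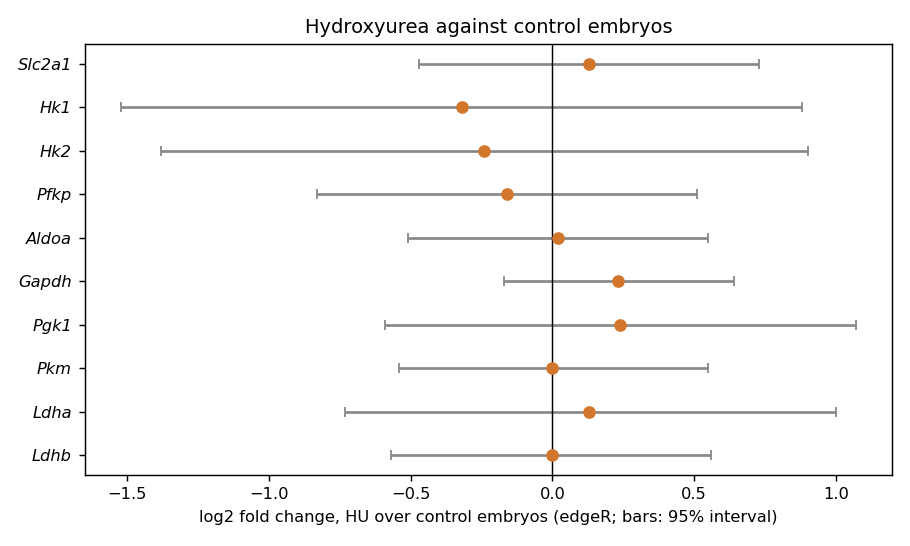
Log2 fold change of HU (n = 8) over control embryos (n = 9) for the 10 genes (points, edgeR) with 95% intervals (bars). All 10 intervals include 0, the narrowest for Gapdh (-0.17 to 0.64) and the widest for Hk1 (-1.52 to 0.88).

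No difference beyond the spread between embryos was found in the isozyme shares. The Ldha share averaged 18.5% ± 7.16 (SD, n = 9) in control and 19.5% ± 10.5 (SD, n = 8) in HU embryos, a difference of 0.944 ± 4.42 points (SE; exact permutation test over 24310 splits, two-sided, p = 0.825, 0.825 after Benjamini-Hochberg adjustment over both shares), and 3 of 8 HU embryos lay above the control median. The Hk1 share averaged 53.2% ± 25.4 (SD, n = 9) and 60.5% ± 28 (SD, n = 8), a difference of 7.28 ± 13 points (exact permutation p = 0.579, adjusted 0.825), and 5 HU embryos exceeded the median control embryo.

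Of the 73 other pathway genes 55 were tested, and 0 passed an adjusted p of 0.05 (edgeR, smallest 0.829). At an unadjusted p under 0.05 there were 2: Galm with -0.54 ± 0.25 and Pgls with 1.51 ± 0.69 on the log2 scale (p = 0.0388 and 0.0401 by edgeR, both 0.829 adjusted). By group, 15 of 24 other enzymes, 9 of 10 regulators, 12 of 17 transporters, 11 of 13 pyruvate dehydrogenase genes and 8 of 9 pentose phosphate genes were tested, with median log2 fold changes of 0.04, 0.16, -0.05, -0.08 and 0.17.

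The spread of these genes between embryos of one group was near that of all genes at 10 CPM or more. Those genes were not matched to the 10 genes by level. Over the 9 of 10 genes with a mean of at least 10 CPM, the coefficient of variation of CPM had a median of 41.8% in control embryos (28% to 104%), against 39.1% over 8832 genes at that level, and 48.4% in HU embryos (28.2% to 77.5%), against 44.4% over 9074 genes. For the lactate dehydrogenase genes, the most alike genes over the 17 embryos were sought by Pearson correlation of log2(CPM + 1), centred by group, among 8957 other genes, as a description. For Ldhb these were Oas1c (r 0.92, Spearman 0.84, 0.87 without the 2 embryos farthest from the median), Spin1 (0.91, 0.85 and 0.84) and Obox1 (0.89, 0.88 and 0.85). For Ldha they were Zc3h15 (0.91, 0.85 and 0.80), Ankrd27 (0.84, 0.78 and 0.72) and Ppfibp2 (0.77, 0.74 and 0.74). Library size and composition differ between embryos and may enter such likeness, which was not tested. Ldha and Ldhb gave r = 0.49 with each other, and with Gapdh they gave 0.01 and 0.00.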

How the data were processed

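Smart-seq2 libraries of 17 single embryos and 12 single cells were analysed from 2 deposited tables, raw counts per gene (24448 gene rows and 92 ERCC rows) and FPKM made by the authors. The submitters' processing notes list mm10, STAR 2.7.3a, FastQC and R 4.0.2. How reads were counted, by which annotation and with or without strand, is not given in the sources used here. Deposited FPKM values equalled count over gene length and library total without ERCC for 18588 of 18588 genes (tolerance 0.001). All deposited columns were mapped to samples by title. No 2 libraries held identical counts.

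The counts of 9 control and 8 HU embryos were compared with edgeR 4.0.16 in R 4.3.3 (TMM, filterByExpr, quasi-likelihood F test, Benjamini-Hochberg over all genes tested, threshold 0.05). DESeq2 1.42.0, limma-voom 3.58.1, other scalings, no filter, a replicate block and leaving out each library were alternatives. The script was tested on simulated data. Isozyme shares were compared by exact permutation in scipy 1.17.1. Cumulus cells were summed, with a floor of 3 counts over a group. Near-identical copies were sought among GENCODE M21 transcripts with blastn 2.17.0, and promoter windows came from RefSeq (10 of 10 genes matched). Smart-seq2 reads carry no molecular identifiers, so intervals, the floor and folds given as "at least" cover counting error of reads only. They do not cover transcripts missed before sequencing.

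The 10 genes and the lists were chosen with earlier results of these data known. Named beside the 10 genes were pathway genes past the edgeR threshold (0), the 2 genes a group with the largest cell to embryo ratio each way, and the 3 genes most alike to Ldha and to Ldhb; Eno1, Eno1b and Pitrm1 were added for shared reads.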

Additional observations from a re-analysis of the deposited data

Results flagged for a closer look

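Over 24 groups of embryo values examined, 3 held a library whose gap to its nearest neighbour was large for the range of its group. Chance meets this rule in about 1 group in 20 for normally distributed values, which FPKM need not be. The groups reuse the same embryos and are not independent. Hk1 had 10.9 FPKM in control 5, where the next control embryo had 3.63 FPKM. Ldha had 134 FPKM in the same embryo, where the next had 64.5 FPKM. Ldhb had 575 FPKM in HU 1, where the next HU embryo had 263 FPKM. Control 5 thus held the highest Hk1, Ldha and Ldhb levels of its group. It also held the highest Pkm (174 FPKM), Aldoa (285 CPM, control 3 at 284 CPM) and share of the 10 genes (0.186%). Its Hk2 level was the lowest of the control embryos (0.371 FPKM).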

How the results depend on the processing

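In HU against control embryos, none of the 10 genes was called under any alternative run. Over all genes DESeq2 called 2 higher and 1 lower, and leaving out 1 embryo gave 0 to 1 higher (1 without HU 8) and 0 lower. With no adjustment (p under 0.05) edgeR found 437 genes higher and 234 lower, which became 629 and 27 with ERCC scaling (which moved the median of all genes from 0.04 to 0.19), 350 and 356 with limma-voom, 1193 and 797 of 19499 genes without a filter, 42 and 18 of 11924 genes with all 3 groups in the fit, and 282 to 642 and 158 to 424 when 1 embryo was left out. Log2 fold changes near 0 changed sign: with ERCC scaling Pfkp (0.06) and Ldhb (0.18); without a filter Aldoa (-0.00) and Pkm (-0.02); with 3 groups Aldoa (-0.00) and Pkm (-0.02); with DESeq2 or its size factors Pkm (-0.00); with limma-voom Pkm (-0.02) and Ldha (-0.08). The cause was not tested. Leaving out 1 embryo gave ranges of -0.63 to 0.20 for Hk1, -0.56 to 0.00 for Hk2, -0.12 to 0.16 for Aldoa, -0.19 to 0.09 for Pkm, -0.14 to 0.38 for Ldha and -0.35 to 0.10 for Ldhb. As a log2 ratio of FPKM + 1 or + 0.1 the Ldha to Ldhb difference was -0.01 or -0.03, and leaving out 1 embryo moved the share difference between -1.29 and 3.17 points. The Hk1 share difference ranged from 1.47 to 13.3 points.

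Control and HU embryos share the replicate numbers 1 to 8. Over 8970 genes the deviations of same-numbered embryos correlated at -0.09 to 0.24 (median 0.04, 2 of 8 pairs over 0.1). Of the 8 HU embryos, 2 correlated best with their own number. These low correlations cannot tell whether same-numbered embryos shared a day or batch, which no label gives. With the replicate block edgeR called 0 genes, 274 were higher and 262 lower with no adjustment, and Aldoa (-0.03), Pkm (-0.06) and Ldha (-0.07) changed sign. The block gave a difference of 1.9 points for the Ldha share (exact sign-flip p = 0.469) and 3.98 points for the Hk1 share (p = 0.789).

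In cells against control embryos, per ERCC count 0 genes were at least 4-fold higher and 5 lower, and Hk2 (-3.36), Pfkp (-1.63), Aldoa (-1.40), Gapdh (-0.81), Pgk1 (-1.55), Pkm (-2.75) and Ldha (-1.08) changed sign. With medians over libraries 2 genes were lower and Hk2 was -0.05, and with Rn45s left out Hk1 was 0.48. Leaving out 1 library gave 3 to 5 genes higher and 1 to 1 lower, with Hk1 between -1.35 and 0.10 and Hk2 between -0.45 and 0.44. Leaving out cells 2 and 11 together, an alternative added after seeing the data, gave 5 genes higher and 1 lower. Low counts limit Hk1, Hk2 and, in cells, Ldhb, and the cells' depth spans 317195 to 4051494 counts.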
